A study of Mus musculus with 2 samples.

Results

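The genes described here are 8 that name bipolar cells and their types in the mouse retina, *Vsx1*, *Isl1*, *Prkca*, *Pcp2*, *Cabp5*, *Car8*, *Sebox*, and *Tacr3*. They were taken by symbol from the 32285 genes of the files, and each symbol occurs once. Whole retinas of male mice aged 7 months were dissociated and profiled by droplet-based 3′ scRNA-Seq, with 1 WT library and 1 library of ND6 P25L mice. The latter carry a missense mutation in the mitochondrially encoded complex I subunit ND6. WT mice were C57BL/6J, and the study's methods name no strain for the mutant line. The mutant line came from fusion of female embryonic stem cells and was kept by mating mutant females with WT males, while WT mice were kept by sibling matings, so the groups came from separate breeding. The labels do not say how many mice stand behind a library. Cells were barcodes that passed limits of 401 UMIs and 201 genes and had no more than 20% of their UMIs on mtDNA-encoded genes, which left 12529 WT cells and 18395 ND6 P25L cells.

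Bipolar cells carry signals from photoreceptors to amacrine and ganglion cells. Rod bipolar cells and ON cone bipolar cells respond to light increments through the glutamate receptor mGluR6 and the cation channel TRPM1, whereas OFF cone bipolar cells use kainate-type receptors such as GluK1, the product of *Grik1*. Members of the list label parts of this family: protein kinase C alpha (*Prkca*) is the classical label of rod bipolar cells, and *Isl1* encodes a LIM homeodomain factor of rod and ON cone bipolar cells.

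The spread between mice is unknown with 1 library per genotype, so no test was made. Every interval covers 95% and counting error only. The libraries differed in depth, with a median of 1878 UMIs per WT cell and 1416 per mutant cell, and the limit on mtDNA-encoded UMIs had removed 45.9% of WT barcodes and 17.3% of mutant barcodes. Both libraries share 59 cell barcodes. A level is given in CPM, the UMIs of a gene per 1000000 UMIs summed over a set of cells, and a log2 ratio compares CPM of 2 such sets. Fewer cells of a type and less RNA per cell cannot be told apart in such sums.

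On GRCm38, the genes lie apart from each other. *Vsx1* spans chr2:150680702-150689360, *Isl1* chr13:116298281-116309689, *Prkca* chr11:107933387-108343928, *Pcp2* chr8:3623371-3625545, and *Car8* chr4:8143362-8239041, all on the minus strand. On the plus strand, *Cabp5* spans chr7:13398132-13408887, *Sebox* chr11:78503447-78505081, and *Tacr3* chr3:134829007-134934579.

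RefSeq promoter windows, from 250 bases before to 50 bases after a start site on GRCm38.p6, were found for 7 of the 8 genes. They were searched on both strands for TAATCC, the core of sites for CRX and OTX2, for TAATTA, a core of homeodomain sites, and for CANNTG, the E-box bound by basic helix-loop-helix factors. TAATCC occurred in the windows of 2 members, *Cabp5* and *Isl1*, and of 8.14% of 27025 genes. TAATTA occurred in 1 of the 4 windows of *Pcp2* and in 6.12% of genes. CANNTG occurred for 5 members, *Vsx1*, *Isl1*, *Prkca*, *Pcp2*, and *Tacr3*, and in 75.0% of genes. The 3 windows with a homeodomain core are shown 5′ to 3′ on the strand of the gene, with TAATCC or TAATTA in capitals. The *Cabp5* window lies at chr7:13397905-13398204 (plus strand), with matches that begin 160 and 41 bases before the start site. The *Isl1* window lies at chr13:116309639-116309938 (minus strand), with a match 177 bases before the start site, and the *Pcp2* window at chr8:3625233-3625532 (minus strand), with a match 101 bases before it. These matches are letters in a window and were not tied to binding or to the levels below.
Cabp5: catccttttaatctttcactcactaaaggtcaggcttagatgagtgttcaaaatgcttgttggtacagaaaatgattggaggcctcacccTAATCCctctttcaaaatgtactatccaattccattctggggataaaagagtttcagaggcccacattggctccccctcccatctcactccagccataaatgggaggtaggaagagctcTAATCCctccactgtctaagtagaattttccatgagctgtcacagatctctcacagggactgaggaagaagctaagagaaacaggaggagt
Isl1: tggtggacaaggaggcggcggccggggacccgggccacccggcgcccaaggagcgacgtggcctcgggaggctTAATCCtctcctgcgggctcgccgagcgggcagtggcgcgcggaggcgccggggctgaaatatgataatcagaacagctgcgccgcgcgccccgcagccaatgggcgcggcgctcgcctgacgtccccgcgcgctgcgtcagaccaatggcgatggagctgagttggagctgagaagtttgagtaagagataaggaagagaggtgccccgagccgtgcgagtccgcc
Pcp2: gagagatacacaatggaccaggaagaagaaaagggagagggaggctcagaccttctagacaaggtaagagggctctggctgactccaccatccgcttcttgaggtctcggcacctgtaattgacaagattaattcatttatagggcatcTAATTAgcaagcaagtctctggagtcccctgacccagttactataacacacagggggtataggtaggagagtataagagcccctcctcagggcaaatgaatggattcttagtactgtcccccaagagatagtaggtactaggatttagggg

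Bipolar cells were marked first by a gate of at least 1 UMI of *Trpm1*, *Grm6*, or *Grik1*. The gate held 467 WT cells, or 3.73% (interval 3.40 to 4.07), and 1536 mutant cells, or 8.35% (interval 7.95 to 8.76). Clusters made without the 8 genes, the gate genes, and a wider list of bipolar genes were set beside it. The markers that named a cluster bipolar-like did include the gate genes, so this comparison is not independent of the gate. Of the gated cells, 215 WT (46.0%) and 557 mutant (36.3%) lay in bipolar-like clusters, while 113 WT (24.2%) and 565 mutant (36.8%) lay in rod-like clusters. Of the gated rod-like cells, 97.3% in WT and 94.3% in the mutant held a single UMI of the gate genes. RPE-like clusters, whose leading genes included *Pmel*, *Mlana*, and *Rgr*, held 72 WT and 73 mutant gated cells. Most gated cells thus lay outside bipolar-like clusters. In the other direction, the gate took in 93.1% of the 231 WT cells and 88.4% of the 630 mutant cells of bipolar-like clusters. Levels are given below for the gate and for these clusters side by side.

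**Figure D1:**
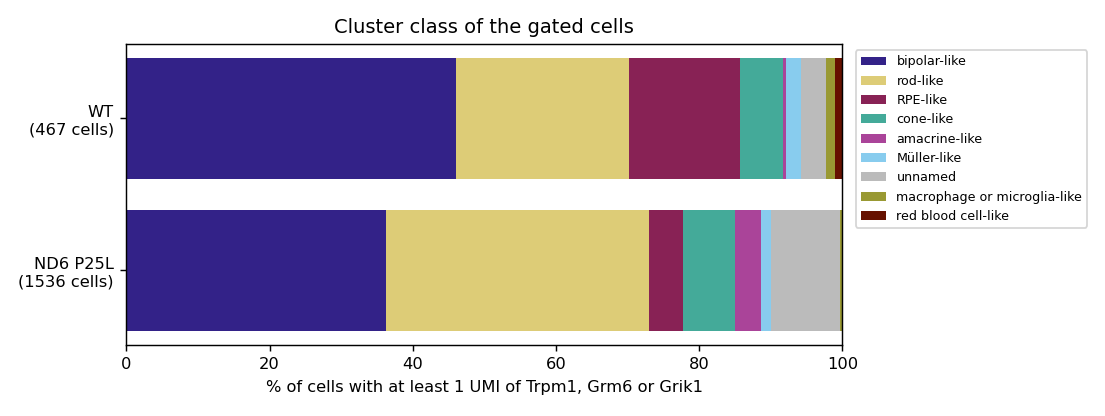
Cluster classes of the cells with at least 1 UMI of *Trpm1*, *Grm6*, or *Grik1*, as a share of the gated cells of each library (x axis, %). Bipolar-like clusters hold 46.0% of the 467 WT cells and 36.3% of the 1536 ND6 P25L cells, and rod-like clusters 24.2% and 36.8%.

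All 8 genes were higher in bipolar-like clusters than in the other cells of the same library. *Pcp2*, which encodes a GoLoco regulator of the G protein that acts downstream of mGluR6, stood at 2688 CPM in WT bipolar-like cells against 15.4 CPM in other cells, and at 1539 against 39.8 CPM in the mutant. The log2 ratio was 7.45 in WT and 5.27 in the mutant. *Cabp5*, a calcium-binding protein of bipolar cells, stood at 745 and 564 CPM in bipolar-like cells and at 4.95 and 8.40 CPM in other cells (log2 ratios 7.23 and 6.07). Both genes separated bipolar-like clusters from the rest in both libraries, with Poisson intervals that did not touch.

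The transcription factors separated them as well, at lower counts. *Isl1* stood at 345 CPM in WT and 339 CPM in mutant bipolar-like cells, and at 1.17 and 6.52 CPM in other cells (log2 ratios 8.20 and 5.70). For *Vsx1*, a homeodomain factor of subsets of cone bipolar cells, the levels were 30.1 and 79.6 CPM against 0.151 and 1.64 CPM (log2 ratios 7.64 and 5.6). *Sebox*, a homeobox gene, had 205 and 80.9 CPM against 8.71 and 9.76 CPM (log2 ratios 4.55 and 3.05). The *Sebox* gene begins 1122 bases downstream of *Vtn*, a gene on the same strand that led several rod-like clusters, and whether reads of one were counted to the other was not tested.

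*Car8*, a carbonic anhydrase-related protein without the catalytic activity of that family, had 338 and 139.8 CPM in bipolar-like cells against 8.45 and 8.89 CPM in others (log2 ratios 5.32 and 3.98). *Tacr3*, the neurokinin B receptor NK3R, was scarce, with 3 WT and 31 mutant UMIs in bipolar-like cells, or 1.84 and 7.94 CPM, and 4 and 49 UMIs in all other cells. *Prkca* was the least restricted member. It had 715 and 380 CPM in bipolar-like cells against 129 and 166 CPM in other cells (log2 ratios 2.47 and 1.2), and a *Prkca* UMI was found in 22% of WT and 22.5% of mutant rod-like cells. Its transcribed region overlaps that of *Apoh* on the opposite strand, which had 33 WT and 29 mutant UMIs. The *Pcp2* gene lies inside *Pet100* on the opposite strand, and *Pet100* had 3903 and 4523 UMIs. Unlike the values of the members, UMIs of *Apoh* and *Pet100* were summed before the limit on mtDNA-encoded UMIs, over 23176 WT and 22256 mutant barcodes.

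Of the 7 members with at least 20 UMIs in WT, all 7 were at least 2-fold higher in bipolar-like clusters, beside 18.3% of 14330 genes, and all 8 were in the mutant, beside 19.8% of 14900 genes. The gate gave a smaller ratio for each of the 8 genes in both libraries. In WT, all 7 members tested passed 2-fold over other cells, beside 17.6% of genes. In the mutant 7 of 8 did, beside 14.8% of genes, and *Prkca* at a log2 ratio of 0.72 did not.

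Levels outside bipolar-like clusters differed between members. *Car8* was found in 34.4% of WT and 21.3% of mutant cone-like cells, at 33.9 and 21.6 CPM, against 0.372% and 0.756% of rod-like cells, at 1.09 and 3.04 CPM. *Sebox* was found in 17.8% and 14.7% of cone-like cells, at 12.9 and 12.5 CPM, and in 2.48% and 2.02% of rod-like cells, at 7.79 and 8.58 CPM. Cone-like cells were deeper, with medians of 7892 and 7743 UMIs against 1750 and 1330 in rod-like cells. After each cell was thinned to 400 UMIs, *Car8* stood in 1.29% and 1.44% of cone-like cells, and in 0.0402% and 0.218% of rod-like cells. Thus *Car8* in cone-like cells was above the level of rod-like cells by CPM and at equal depth in both libraries.

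*Isl1*, which also marks cholinergic amacrine cells, had 45.7 CPM in mutant amacrine-like cells (interval 36.5 to 56.4) and 9.48 CPM in WT amacrine-like cells (interval 3.81 to 19.5). Its UMIs lay in 35 of 303 mutant cells and in 1 of 78 WT cells, so the WT level came from a single cell. Of the 6 members with at least 20 UMIs in amacrine-like cells, 5 were higher in the mutant and 1 lower, beside 54.2% of all genes higher. *Pcp2* stood at 123 CPM in mutant and 32.5 CPM in WT amacrine-like cells. The gate took in 18.5% of mutant and 2.56% of WT amacrine-like cells. The part of RNA from bipolar cells in the *Isl1* level was not tested. *Prkca* was found in 62.8% of WT and 41.9% of mutant amacrine-like cells, at 169 and 181 CPM.

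Barcodes with 10 to 100 UMIs, taken as a measure of free RNA, held more of most members per UMI in the mutant. *Isl1* had 8.84 CPM (2 UMIs) in WT and 66.8 CPM (26 UMIs) in the mutant, *Car8* 4.42 CPM (1 UMI) and 43.7 CPM (17 UMIs), and *Pcp2* 133 and 316 CPM. In rod-like cells, all 8 members were also higher in the mutant, beside 52.3% of all genes. Of the members, 6 were at least 2-fold higher, beside 9.85% of all genes. *Vsx1* and *Tacr3* had 3 WT UMIs each there and passed the limit of 20 UMIs only through the mutant. The log2 ratio there was 3.02 for *Isl1*, 3.56 for *Vsx1* (35 against 3 UMIs), 1.34 for *Pcp2*, 0.30 for *Prkca*, and 0.14 for *Sebox*. The part of free RNA in these values was not tested.

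**Figure D2:**
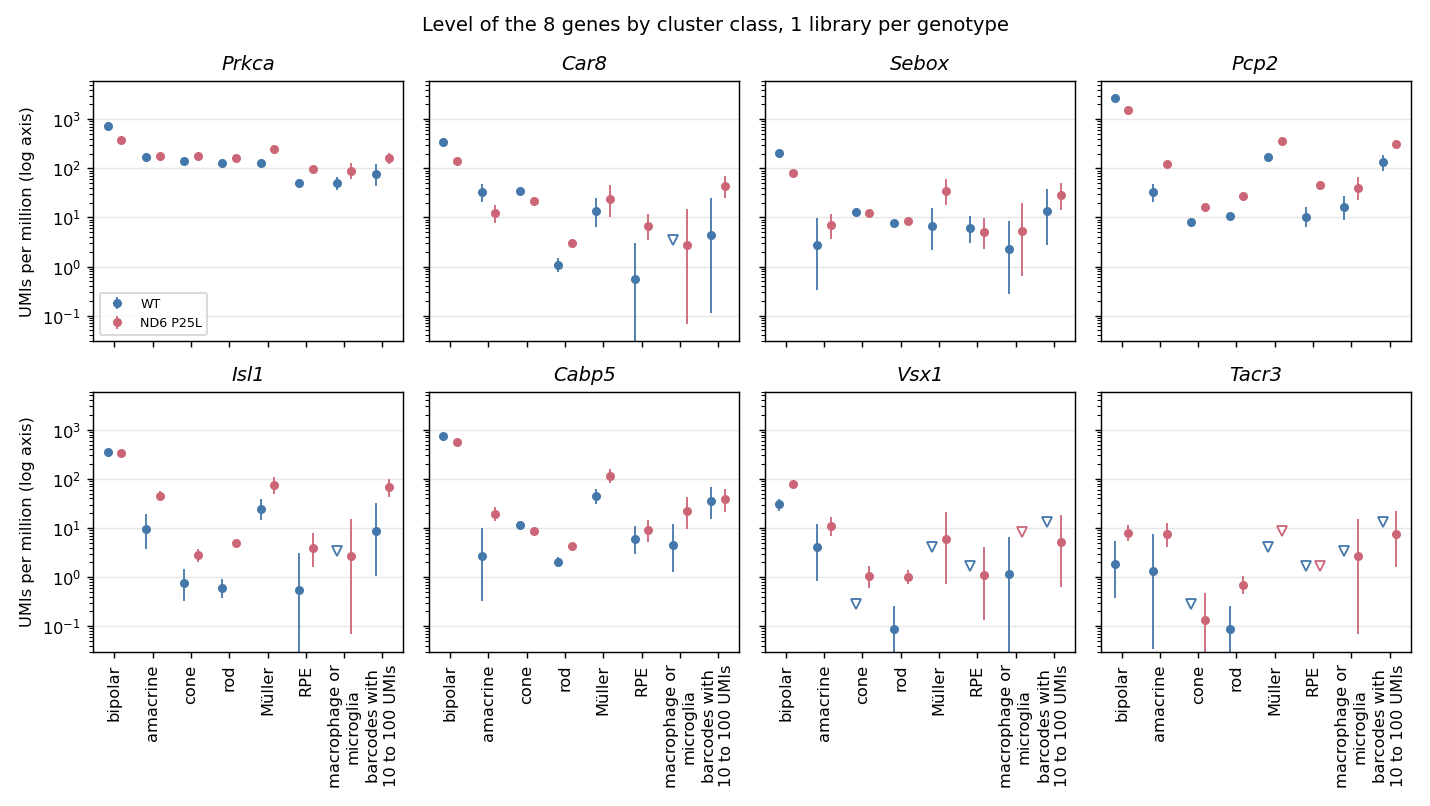
Level of each gene (y axis, CPM on a log axis) in the cluster classes and in barcodes with 10 to 100 UMIs (x axis) for WT (blue) and ND6 P25L (red). Bars are 95% Poisson intervals, cut at the lower edge of the axis, and open triangles mark classes with 0 UMIs at the level of 3 counts. All 8 genes are higher in bipolar-like clusters than in rod-like clusters, and *Prkca* has the flattest profile.

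Within the bipolar-like clusters, 14 subclusters were made, again without the 8 genes. Subclusters 2 and 9 were rod bipolar-like by *Vstm2b*, *Trpm1*, and other genes fixed for that name, and 6 members met there. Of the 65 WT cells, 100% held *Prkca*, *Car8*, and *Pcp2*, 96.9% *Sebox*, and 87.7% *Isl1* and *Cabp5*. Of the 60 mutant cells, 96.7% held *Prkca*, 86.7% *Car8*, 83.3% *Sebox*, and 81.7% *Cabp5*, and *Pcp2* was found in 57 cells and *Isl1* in 54. The joint detection was frequent, since 48 WT cells (73.8%) and 44 mutant cells (73.3%) held 6 of the 8 genes. *Vsx1* had 2 UMIs in 1 WT cell and 0 in the mutant, which allows up to 9.60 CPM, and *Tacr3* had 0 in both.

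*Car8* and *Sebox* parted in subcluster 3, led by *Brinp3*, *Gas1*, and *Rbp4*. There, 9 of 18 WT cells and 40 of 68 mutant cells held *Car8*, at 215 and 194 CPM, whereas *Sebox* had 0 UMIs in WT and 4 UMIs in the mutant. These cells held *Pcp2* in 100% and 95.6% and *Isl1* in 66.7% and 83.8%. In subclusters 0, 11, and 12, *Car8* had 0 UMIs in both libraries.

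*Isl1* and *Cabp5* parted in subclusters 5, 8, and 11. OFF cone bipolar-like subclusters 5 and 8, named by *Grik1* and other fixed markers, held *Isl1* in 6.90% of 29 WT cells and 8.25% of 97 mutant cells, and *Cabp5* in 89.7% and 80.4%. The *Cabp5* level was 1579 and 1374 CPM, and the *Isl1* level 52.9 and 66.7 CPM. In the unnamed subcluster 11, *Isl1* had 0 UMIs in both libraries while *Cabp5* lay in 88.9% of 9 WT cells and 88.2% of 17 mutant cells. Subcluster 8 was also led by *Ttr* and *Rgr*, genes of RPE, which were found among its leading genes beside *Irx6* and *Erbb4*.

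*Vsx1* was frequent in subclusters 4 and 10 but not confined to them. Over all bipolar-like cells, it was found in 15 WT and 96 mutant cells. In subcluster 10, led by *Tacr1* and *Igfn1* among others, *Vsx1* lay in 2 of 5 WT cells (238 CPM) and in 20 of 22 mutant cells (680 CPM, interval 541 to 843). All 20 of these mutant cells also held *Pcp2*, 16 held *Isl1*, 2 held *Cabp5*, and 0 held *Car8* or *Sebox*. In subcluster 4, led by *Cck* and *Grin3a*, *Vsx1* lay in 5 of 15 WT cells (217 CPM) and 40 of 67 mutant cells (365 CPM).

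Subcluster 4 held cells of at least 2 patterns of the 8 genes. In the mutant, *Isl1* was found in 43 of its cells and *Tacr3* in 11, and no cell held both. *Vsx1* was found with each of them, in 28 of the 43 *Isl1* cells and in 8 of the 11 *Tacr3* cells. In WT, *Isl1* was found in 11 cells, 4 of them with *Vsx1*, and *Tacr3* in 1 cell without *Isl1*. In the mutant, *Vsx1* therefore shared cells with *Isl1* and with *Tacr3*. *Isl1* and *Tacr3* were not seen together in the 15 WT and 67 mutant cells of subcluster 4. The depth would miss many joint cells.

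Subclusters 1 and 6 carried genes of other cells. Subcluster 1 had a median of 16302 UMIs per cell, held 33.3% of WT and 43.4% of mutant UMIs of the bipolar-like clusters, and had *Prkca* in 100% of 19 WT cells and 95.3% of 86 mutant cells. In subcluster 6, the photoreceptor genes *Pde6g* and *Gngt1* were among the leading 10, and *Cabp5* lay in 5 of 10 WT cells and 10 of 62 mutant cells. Doublets were not removed, and their part in these values was not tested.

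**Figure D3:**
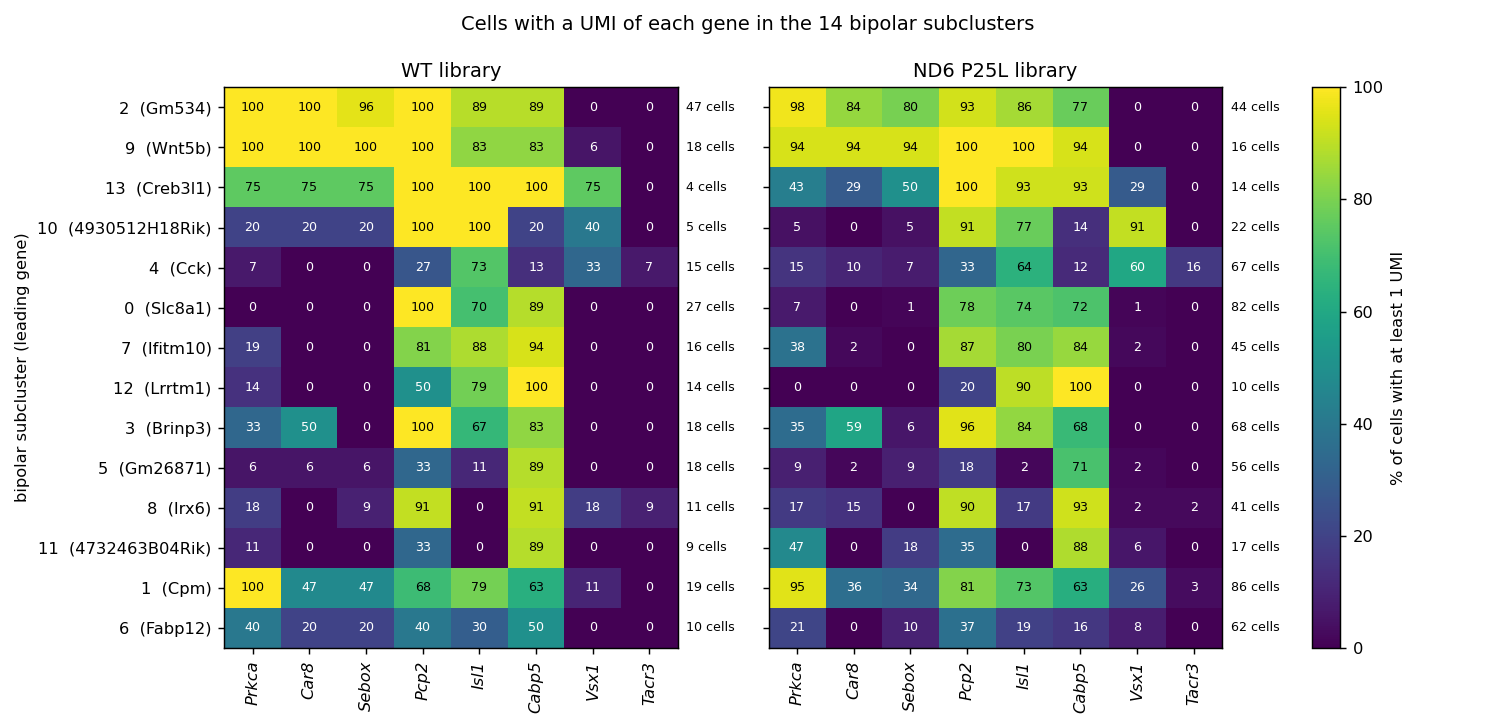
Share of cells with at least 1 UMI of each gene (colour and printed number, %; genes on the x axis) in the 14 subclusters of bipolar-like cells (y axis, with the leading gene in parentheses and the number of cells at the right) for each library. *Prkca*, *Car8*, and *Sebox* meet in subclusters 2 and 9, *Vsx1* is frequent in subclusters 4 and 10, and *Isl1* is rare in subclusters 5, 8, and 11.

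Co-detection over all bipolar-like cells followed these groups. At least 2 of the 8 genes lay in 83.1% of WT and 76.0% of mutant bipolar-like cells, against 48.6% and 41.0% of gated cells and 3.02% and 4.08% of rod-like cells. At 400 UMIs per cell, the shares were 42.4% and 24.4% in bipolar-like and 0.100% and 0.189% in rod-like cells. The highest number in a cell was 7, found in 3 WT and 6 mutant bipolar-like cells.

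Among WT bipolar-like cells, *Sebox* was found in 84.4% of the 90 cells with *Car8* and in 2.84% of those without it. In the mutant, it was found in 50% of 142 cells with *Car8* and in 8.20% of those without. *Prkca* was found in 92.2% of WT and 73.2% of mutant *Car8* cells, against 17.7% and 27.3% of the others. Each of these pairs was more frequent together than apart in both libraries. Thinned to 400 UMIs, *Sebox* lay in 5 of 29 WT *Car8* cells and 8.42% of the others, and in 5 of 30 mutant *Car8* cells and 2.17% of the others. *Prkca* lay in 14 of 29 and 14 of 30 *Car8* cells, against 13.4% and 6.33% of the others. The contrast with cells without *Car8* was thus larger in WT with all UMIs and larger in the mutant at equal depth, so it gave no order of the libraries.

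*Cabp5* and *Vsx1* showed the opposite order. *Cabp5* lay in 46.7% of the 15 WT *Vsx1* cells and 81.5% of the others, and in 26.0% of the 96 mutant *Vsx1* cells and 67.0% of the others. *Isl1* lay in 73.3% and 74.0% of *Vsx1* cells, against 65.7% and 56.6% of the others. Of the 15 mutant *Tacr3* cells, 60% held *Vsx1* and 13.3% held *Isl1*, against 14.1% and 60.3% of cells without *Tacr3*.

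With all UMIs counted, those of the rod bipolar genes *Prkca*, *Car8*, or *Sebox* were not rarer in gated cells with *Vsx1* or *Tacr3* than in the others. They were found in 9 of 19 WT cells (47.4%, interval 24.4 to 71.1) against 42.4% of the other gated cells, and in 58 of 122 mutant cells (47.5%, interval 38.4 to 56.8) against 42.9%. Gated cells with *Vsx1* or *Tacr3* were deeper, with medians of 8290 and 6350 UMIs against 4968 and 2905. Rod-like cells without *Vsx1* or *Tacr3* held a UMI of *Prkca*, *Car8*, or *Sebox* in 23.3% and 23.9%, at lower medians of 1749 and 1330 UMIs. Such UMIs were thus also seen in another cell type. Thinned to 400 UMIs, 3.74% of WT and 5.53% of mutant rod-like cells without *Vsx1* or *Tacr3* held one. Also thinned, 2 of 25 mutant gated cells with *Vsx1* or *Tacr3* held one, against 8.47% of the other mutant gated cells. In bipolar-like clusters alone, the shares were lower with *Vsx1* or *Tacr3* in both libraries. They were 6 of 16 WT cells (37.5%) against 51.6%, and 42 of 102 mutant cells (41.2%) against 47.9%. The intervals overlapped in each of these pairs, but overlap is not a test, and no test of a difference was made.

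**Figure D4:**
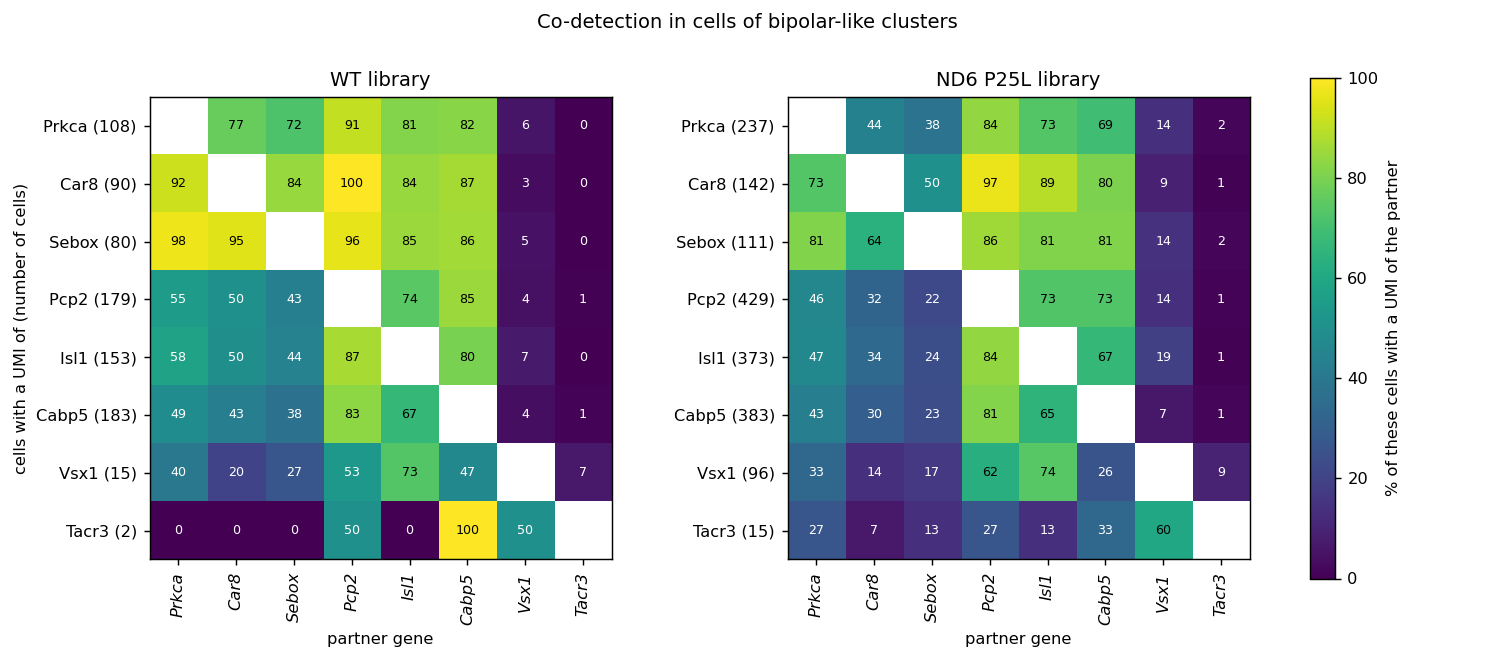
Share of bipolar-like cells with a UMI of one gene (y axis, number of cells in parentheses) that also held a UMI of a partner gene (x axis), in % (colour and printed number), for each library. Cells with *Car8* held *Sebox* in 84.4% of WT and 50% of mutant cells, and *Tacr3* cells of the mutant held *Vsx1* more often than *Isl1*.

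To set ON against OFF types without the clusters, gated cells with *Trpm1* or *Grm6* and no *Grik1* (369 WT and 1128 mutant) were compared with gated cells that held only *Grik1* (59 and 279). In both libraries, bipolar-like clusters gave a larger part of the UMIs of the ON gate than of the OFF gate. The gate ratios therefore do not set ON against OFF types alone, and ratios within bipolar-like clusters are given beside them. In each library, 5 members were at least 2-fold higher in the ON gate, beside 8.23% of all genes in WT and 3.83% in the mutant, and 0 were 2-fold lower, beside 3.6% and 2.62%. *Isl1* had the largest log2 ratio of the members with UMIs in both gates, 5.59 in WT (interval 3.10 to 10.9) and 4.73 in the mutant (interval 3.80 to 5.86). *Pcp2* stood at 3.82 and 2.24, *Sebox* at 3.44 and 2.11, and *Car8* at 2.83 and 2.71. In the WT OFF gate, *Isl1* had 1 UMI, *Sebox* 3, and *Car8* 7. Over other settings of the processing, the WT ratio ranged from 0.41 to 6.00 for *Isl1*, 0 to 4.79 for *Sebox*, and 0.16 to 5.58 for *Car8*. *Prkca* passed 2-fold in WT (1.91) and not in the mutant (0.79), where *Vsx1* was the fifth member to pass. Within bipolar-like clusters it passed in both, at 3.99 in WT and 2.30 in the mutant (interval 1.76 to 2.90). In those clusters, *Isl1* stood at 5.47, *Car8* at 4.09, *Vsx1* at 3.38, *Sebox* at 2.01, and *Pcp2* at 1.77 in the mutant. In WT, *Pcp2* stood at 3.81, and *Isl1*, *Car8*, and *Sebox* had 435, 445, and 275 UMIs in the ON gate and 0 in the OFF gate.

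*Cabp5* was close to even between the gates, at 0.20 and 0.39. Within bipolar-like clusters it was lower in the ON gate, at -0.36 (interval -0.73 to 0.03) in WT and -0.39 (interval -0.60 to -0.17) in the mutant. *Vsx1* had 32 UMIs in the WT ON gate and 0 in the OFF gate, whose 3-count limit of 7.30 CPM lies near the ON level of 8.32 CPM, so no direction could be seen at this depth. In the mutant it had 35.8 CPM in the ON gate and 3.73 CPM in the OFF gate (log2 ratio 3.26). *Tacr3* had 2 WT UMIs in the ON gate and 0 in the OFF gate, and in the mutant its ratio of 0.64 had an interval from -1.09 to 3.03. Within bipolar-like clusters of the mutant, *Tacr3* had 13 UMIs in the ON gate and 0 in the OFF gate (lower limit of the log2 ratio -1.37).

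Between genotypes, the members differed in direction. In bipolar-like clusters, 2 of 8 were higher in ND6 P25L than in WT, beside 59.1% of all genes. These 2, *Vsx1* and *Tacr3*, both passed 2-fold, beside 5.83% of 11466 genes. *Car8* and *Sebox* were at least 2-fold lower, beside 1.53% of genes. The *Vsx1* level was 30.1 CPM in WT (49 UMIs) and 79.6 CPM in the mutant (311 UMIs), a log2 ratio of 1.40 (interval 0.96 to 1.87), and that of *Tacr3* was 2.11 (interval 0.43 to 4.46). *Sebox* stood at -1.34 (interval -1.57 to -1.11), *Car8* at -1.27 (interval -1.45 to -1.10), *Prkca* at -0.91, *Pcp2* at -0.80, and *Cabp5* at -0.40. *Isl1* was even, at -0.03 (interval -0.17 to 0.12). The median over members was -0.60, and over all genes tested 0.08.

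In the gate, 3 members were higher in the mutant, beside 54.2% of all genes. These were *Vsx1* (1.48), *Tacr3* (2.67), and *Isl1* (0.11, interval -0.03 to 0.26). The first 2 passed 2-fold, beside 5.42% of 13187 genes, and *Car8* (-1.07) and *Sebox* (-1.09) were 2-fold lower, beside 4.89%. *Prkca* stood at -0.33, *Cabp5* at -0.30, and *Pcp2* at -0.72.

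The mix of bipolar types differed between the libraries. Rod bipolar-like cells were 28.1% of WT bipolar-like cells (interval 22.4 to 34.4) and 9.52% of mutant ones (interval 7.35 to 12.1). Of all cells, the 65 WT cells were 0.519% (interval 0.401 to 0.661) and the 60 mutant cells 0.326% (interval 0.249 to 0.420). Bipolar-like cells as a whole were 1.84% of WT cells and 3.42% of mutant cells. Inside the rod bipolar-like subclusters, the differences of the rod bipolar genes were small. *Prkca* had 2311 CPM in WT and 2205 CPM in the mutant (log2 ratio -0.07, interval -0.22 to 0.08). *Car8* had 1157 and 1088 CPM (-0.09, interval -0.30 to 0.12), and *Sebox* 762 and 656 CPM (-0.22, interval -0.49 to 0.05). *Pcp2* had 7273 and 6360 CPM (-0.19, interval -0.28 to -0.11), and *Cabp5* 605 and 621 CPM (0.04, interval -0.25 to 0.33). Of these 6 genes, *Isl1* had the largest difference, with 593 and 922 CPM (0.64, interval 0.37 to 0.90). Its level in barcodes with 10 to 100 UMIs was also higher in the mutant, as given above. In both libraries that level lay below the *Isl1* level of rod bipolar-like cells. The part of free RNA in the *Isl1* difference was not tested.

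Weighting the mutant level of each subcluster by the WT share of UMIs gave *Prkca* -0.16, *Car8* -0.29, *Sebox* -0.31, *Pcp2* -0.26, *Cabp5* -0.19, *Isl1* 0.37, *Vsx1* 1.02, and *Tacr3* 1.51. With the WT mix, *Car8* and *Sebox* were less than 2-fold lower, and *Vsx1* lay at the 2-fold limit. These weighted ratios are given without intervals, and WT subclusters 10 and 13 held only 5 and 4 cells. The part of the mix in the differences was not tested. Leaving out subclusters 1 and 6 left *Car8* at -1.13, *Sebox* at -1.22, *Prkca* at -1.01, and *Vsx1* at 1.29. The mix weighting was added after the data were seen. The limit on mtDNA-encoded UMIs, which removed unequal shares of the libraries, may bear on the mix, and its part was not tested.

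**Figure D5:**
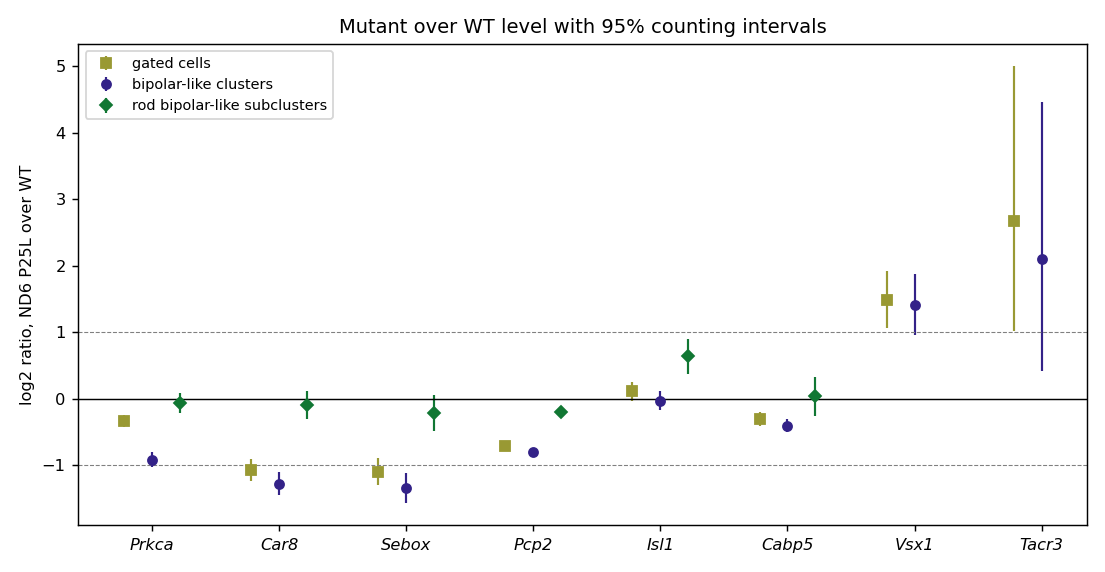
Log2 ratio of the ND6 P25L level over the WT level (y axis) of each gene (x axis) in gated cells, bipolar-like clusters, and rod bipolar-like subclusters, with 95% counting intervals as bars and dashed lines at 2-fold. *Car8* and *Sebox* lie at or below -1 in gated cells and bipolar-like clusters and near 0 in rod bipolar-like subclusters, where *Vsx1* and *Tacr3* have too few UMIs to be drawn.

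Other bipolar genes, taken from a list of 40 written for this comparison, were set beside the members in bipolar-like clusters. Of 14 transcription factors, 10 stood higher and 4 lower in the mutant (median 0.38), and *Irx6* (1.14) alone passed 2-fold. Of all genes tested there, 59.1% stood higher and 5.83% passed 2-fold higher. The LIM homeodomain factor *Lhx4* stood at 0.51. Among 14 synapse and signalling genes, 6 stood higher and 8 lower (median -0.35). The kainate receptor partner *Neto1* (92 against 2 UMIs) and the calcium-binding *Cabp2* (1.15) were at least 2-fold higher, and the ON channel *Trpm1* stood at -0.70.

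Of 11 subtype genes with at least 20 UMIs, 5 were higher and 6 lower, and 2 were at least 2-fold lower, beside 1.53% of all genes, with the rod bipolar gene *Vstm2b* (-1.46) among them. In rod bipolar-like subclusters, which these genes helped to name, *Vstm2b* stood at -0.23 and *Trpm1* at -0.01. There, *Gpr179* (0.59) lay close to *Isl1* (0.64).

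Genes whose levels were most like those of the members were sought over 17 sums of cluster class and library from 9 classes, among 14306 genes. The sums of one library share its depth, so Pearson's r is given as a description. *Vsx1* was most like *Erbb4* (r = 0.98), *Igfn1*, and *Irx6*, and *Isl1* most like *Rskr* (r = 0.99), *Medag*, and *Pde9a*. *Pcp2* was most like *Gng13* (r = 0.99) and *Grm6*, and *Cabp5* like *Bhlhe23* (r = 0.98), *Scgn*, and *Hs3st4*. *Sebox* was most like *Retn* (r = 0.98), *Lactbl1*, and *Gm9899*, *Car8* like *Sel1l3* (r = 0.95), *Asic4*, and *Sgpp2*, *Prkca* like *Agap1* (r = 0.95), *Sh2d5*, and *Edil3*, and *Tacr3* like *Hs3st1* (r = 0.93), *Grin3a*, and *Gm16105*.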

How the data were processed

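Single-cell libraries of WT and ND6 P25L retina (1 each) were analysed. Per the labels and the study's methods, the authors aligned 10x Genomics 3′ reads to mm10 with Cell Ranger 3.0.2 and deposited raw UMI counts per gene and barcode, neither normalized nor filtered for cells. The annotation release is not given in the sources used here, so gene positions came from the GENCODE annotation at hand.

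Cells were barcodes with more than 400 UMIs, more than 200 genes, and at most 20% mt- UMIs, which kept 12529 barcodes of WT (median 1878 UMIs) and 18395 of the mutant (median 1416). Clustering used Python scanpy 1.11.5 and igraph 0.11.9, with 3000 variable genes scaled within each library, 30 principal components, 20 neighbours, and Leiden resolution 1. Bipolar-like cells were clustered again with 2000 variable genes, 15 components, and 15 neighbours. The 8 genes and the 40 of the wider list, gate genes included, did not enter, nor did 13 mtDNA-encoded genes. Clusters were named from fixed markers (at least 3 raised 2-fold, at least 20 cells) by a rule settled after the clusters were seen. The bipolar markers included the gate genes and genes of the wider list, but none of the 8 genes. Doublets were kept and no caller was run.

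UMIs were summed per set of cells. Intervals are Clopper-Pearson for shares, Poisson for levels, and conditional binomial for ratios, each exact. Genes with at least 20 UMIs over both sums were compared across genes at a 2-fold limit, and 0 UMIs is shown as a level of 3 counts. The intervals were checked on counts simulated under the counting model that they assume. The check therefore does not cover UMIs that gather in few cells. With 1 library per genotype there is no test. The genes named are the 8, the gate, marker, and wider lists, the 3 genes most like each member, and the leading genes of subclusters. The 8 genes and all lists were chosen with earlier results of these data known. *Vtn*, *Apoh*, and genes that lead clusters of other classes were named after their values were seen. Some genes that this rule names are not reported here.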

Additional observations from a re-analysis of the deposited data

How the results depend on the processing

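No paired analysis was possible because each genotype has 1 library, and for the same reason no library could be left out. A count was taken as kept within 1.5 times its reported value, and a share or ratio within the counting interval of its reported value. Of the repeated summary values, 94 were kept and 32 were not, and of those for single genes 274 were kept, 187 moved, and 3 turned in sign from a ratio whose interval excluded 0. Most of the 32 were the size of the gate and co-detection in it. The gate held 2.08% of WT and 3.35% of mutant cells at 2 UMIs, 1.76% and 2.66% at 3 UMIs, 2.83% of WT cells without the mtDNA limit, 9.35% of mutant cells at a minimum of 1000 UMIs, and 1.28% and 2.67% with cells thinned to 400 UMIs. The share of gated cells with at least 2 members was 73.8% and 73.6% at 2 UMIs, 76.8% and 80.2% at 3 UMIs, 40.3% and 37.5% without the mtDNA limit, 46.1% (mutant) at 1000 UMIs, 41.2% and 17.7% thinned, 84.2% and 77.7% in bipolar-like clusters only, 38.5% (mutant) without the deepest 5% of gated cells, and 60.7% in both libraries outside rod-like clusters, an alternative chosen after seeing the data, as were the weighting by WT subcluster shares and leaving out subclusters 1 and 6.

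Thinning removes most UMIs of a cell. With it, 1 member was higher in mutant gated cells in place of 3, 2 were higher in the WT ON gate in place of 5, and 0% of WT and 5.26% of mutant gated cells with *Vsx1* or *Tacr3* held a UMI of *Prkca*, *Car8*, or *Sebox*. With all genes of at least 1 UMI, the shares past 2-fold were 6.39% higher and 9.05% lower in mutant gated cells, 7.43% and 5.32% in bipolar-like clusters, and 22.4% (WT) and 18.5% (mutant) for the gate over other cells. These 3 were of the mutant ON gate over the OFF gate. *Cabp5* stood at -0.29 with a gate of 2 UMIs and at -0.39 within bipolar-like clusters, and *Sebox* at -0.25 after thinning, and the cause was not tested. Ratios whose interval held 0 also turned, with mutant *Tacr3* at -0.64 and WT *Cabp5* at -0.85 with a gate of 2 UMIs, and WT *Cabp5* at -0.36 within bipolar-like clusters. Over all settings, the ON over OFF ratio kept its sign in 58 of 64 mutant and 49 of 64 WT values, where a value with too few UMIs counts as not kept. The mutant over WT ratio in bipolar-like clusters kept its sign in 52 of 56 values and the gated ratio in 83 of 88. *Vsx1* ranged from 1.02 to 1.71 and *Sebox* from -1.48 to -0.31 in bipolar-like clusters.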
